A study of Mus musculus with 4 samples.

Results

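Cholesterol synthesis was examined through 8 genes chosen by name: Hmgcs1, Idi1, Fdps, Fdft1, Sqle and Lss, which encode enzymes on the way from acetoacetyl-CoA to lanosterol, Srebf2, which encodes the transcription factor SREBP2 that controls them, and Insig1, which encodes its sterol-dependent inhibitor. All 8 were on the array, out of 36282 names the array carries, and all 8 were among the 24518 features that could be tested. The set has no uptake gene of its own, so receptors and transport proteins were read from a separate list. RNA came from progenitors that can become fat cells, sorted by FACS from subcutaneous fat and lysed without culture. The mice were male, 4 weeks old and of the FVB strain, with no treatment named, and either wild-type or carrying an Adamts1 transgene. Each genotype had 2 samples, each on 1 single-colour Agilent array. The labels do not name the promoter that drives the transgene, the cells that express it or the markers of the sort. They also do not say whether a genotype's 2 samples were from different animals, so each p-value reflects only how far these samples spread, which may be technical.

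Cells make cholesterol from acetyl-CoA through mevalonate and isoprenoid intermediates to squalene, which is oxidised and cyclised to lanosterol and then trimmed to cholesterol. When sterols in the endoplasmic reticulum are scarce, SCAP carries SREBP2 to the Golgi, where it is cut to release a factor that enters the nucleus and induces the synthesis enzymes and genes of cholesterol uptake. When sterols are plentiful, INSIG proteins hold SCAP and SREBP2 back. Insig1 and Srebf2 are themselves induced by SREBP, and fat cells store much of the body's cholesterol at the surface of their lipid droplets. Cleaved SREBP binds a sterol regulatory element together with NF-Y, which binds the CCAAT box, or Sp1, which binds a GC box.

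The promoters of 4 of the genes are shown because SREBP2 is known to act through promoter elements of this kind and because the genes differed in how they behaved here: Hmgcs1 passed the test between genotypes, Idi1 and Srebf2 were higher on both transgenic arrays without passing it, and Insig1 was not. The sequences are the 250 bases before each RefSeq start site on GRCm38.p6, plus strand, at chr13:119690101-119690350 for Hmgcs1, chr13:8885356-8885605 for Idi1, chr15:82147019-82147268 for Srebf2 and chr5:28071162-28071411 for Insig1. Capitals mark CCAAT boxes, here all in the reverse orientation as ATTGG, and the sterol element.
Hmgcs1: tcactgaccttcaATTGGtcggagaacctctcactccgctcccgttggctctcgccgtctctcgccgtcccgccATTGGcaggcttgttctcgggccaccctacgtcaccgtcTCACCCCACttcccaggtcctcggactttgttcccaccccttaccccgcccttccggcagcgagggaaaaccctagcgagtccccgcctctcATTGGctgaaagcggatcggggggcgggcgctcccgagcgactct
Idi1: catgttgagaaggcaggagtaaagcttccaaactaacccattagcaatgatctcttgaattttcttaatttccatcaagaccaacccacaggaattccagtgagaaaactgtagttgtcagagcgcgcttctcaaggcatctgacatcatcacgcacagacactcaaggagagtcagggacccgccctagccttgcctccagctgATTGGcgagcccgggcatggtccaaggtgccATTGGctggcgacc
Srebf2: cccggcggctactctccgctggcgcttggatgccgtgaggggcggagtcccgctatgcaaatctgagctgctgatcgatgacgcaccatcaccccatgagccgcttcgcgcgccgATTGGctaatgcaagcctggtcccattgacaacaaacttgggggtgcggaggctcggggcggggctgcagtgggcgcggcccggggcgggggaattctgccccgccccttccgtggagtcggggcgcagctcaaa
Insig1: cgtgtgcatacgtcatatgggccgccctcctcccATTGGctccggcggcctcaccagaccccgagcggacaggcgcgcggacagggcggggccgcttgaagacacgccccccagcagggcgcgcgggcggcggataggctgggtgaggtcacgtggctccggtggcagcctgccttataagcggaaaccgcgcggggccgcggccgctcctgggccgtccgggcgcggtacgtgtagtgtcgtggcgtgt

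RefSeq windows of 300 bases, from 250 before to 50 after a start site, were matched for 5 of the 8 genes, and Fdps, Fdft1 and Sqle were not matched. The sterol element was searched as TCACNCCAC, the NF-Y box as CCAAT and the Sp1 box as GGGCGG, each on both strands. In the 5 windows no matches overlapped. The Hmgcs1 window held the sterol element once, as TCACCCCAC from 137 to 129 bases before the start, and the windows of Idi1, Insig1, Lss and Srebf2 did not hold these letters. Over all genes with a window, 1.44% held the element. All 5 windows held a CCAAT box and all 5 held GGGCGG, against 41.1% and 38.2% of the 27025 genes with a window. Hmgcs1 had 4 CCAAT boxes, the last of them after the start site, Idi1 had 2, and Insig1, Lss and Srebf2 had 1 each. Of the 10 lanosterol-to-cholesterol genes with a window, 9 held a CCAAT box and 0 held the sterol element. These matches are descriptions of letters, and binding was not measured.

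Transgenic samples were set against wild-type samples. Of the 8 genes, the synthase gene Hmgcs1 rose in the transgenic samples, to 1.52-fold. Squalene epoxidase (Sqle) had the largest difference of the 8, at 2.87-fold, but did not pass the test, and the 2 wild-type arrays differed from each other as well. Idi1, Fdft1 and Srebf2 were 1.89-fold, 1.96-fold and 1.72-fold the wild-type mean, on both transgenic arrays above both wild-type arrays, and none of these passed either. Fdps, Lss and Insig1 had values that overlapped between genotypes. The threshold for a call was an adjusted p of 0.05 in limma, with Benjamini-Hochberg adjustment over all features. By that rule 1 of the 8 was called, higher, against a background of 1.73% of all features called in either direction, 0.967% higher and 0.759% lower. On 5 of the 8 the groups did not overlap with the transgenic arrays higher, where the same was true of 24.5% of all features. The median log2 difference of the 8 was 0.70, against -0.016 over all features tested. Because the 8 were chosen with earlier results of these data known, this gap is a description and was not tested. With 2 arrays per genotype an exact permutation test of 1 gene could not give a p below 0.333.

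**Figure D1:**
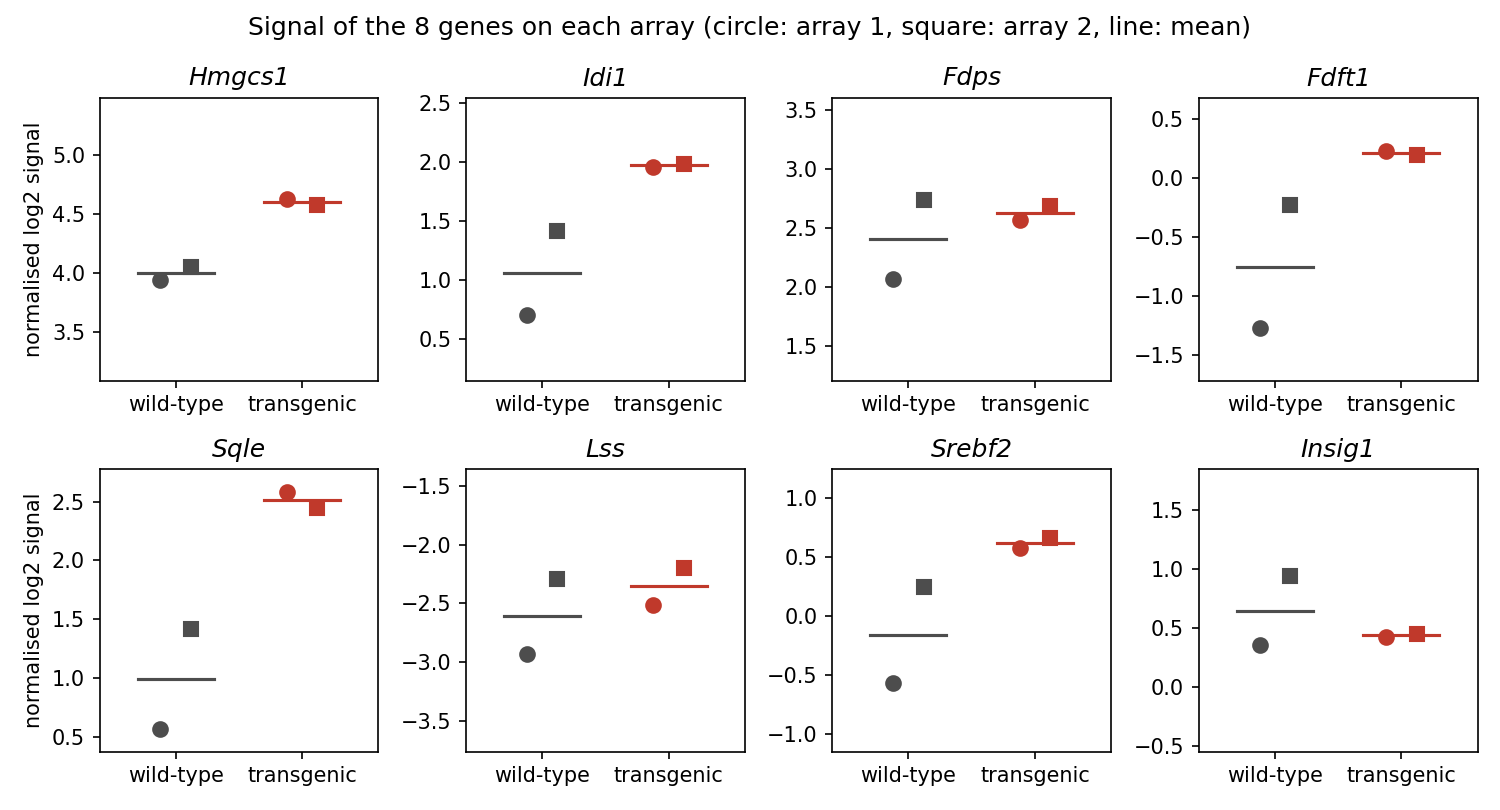
Normalised log2 signal (log2 of the processed signal less the array's 75th percentile) of each of the 8 genes on the 2 wild-type arrays (grey) and the 2 transgenic arrays (red), circles for array 1, squares for array 2 and lines at the group means; all panels span the same number of log2 units. The transgenic arrays lie close together, wild-type array 1 lies below wild-type array 2 for all 8 genes, and the groups do not overlap for Hmgcs1, Idi1, Fdft1, Sqle and Srebf2.

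Values below are normalised log2 signals, in which 0 is the 75th percentile of an array, so that they show how a gene differs between arrays and not which gene is more abundant. Each probe is 60 bases long, coordinates are those of mm9 in the scanner files, and the position within the transcript is the one those files give. Whether a probe lies in coding or untranslated sequence was not determined, because no mm9 gene annotation was used here. Every probe of the 8 genes was well above background on all 4 arrays.

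Hmgcs1 encodes the cytosolic HMG-CoA synthase, an early enzyme of the mevalonate pathway. Its probe, on chr13_random at 114793 to 114852 and at position 3142 of NM_145942, gave 3.94 and 4.05 on the wild-type arrays and 4.63 and 4.58 on the transgenic arrays. The transgenic values lay apart from the wild-type values by several times the gap between either pair. The log2 difference was 0.61 ± 0.09 (SE, n = 2 per group), or 1.52-fold with a 95% interval of 1.31 to 1.78 and an adjusted p of 0.0471. The difference moved little with a transgenic array left out, at 0.58 without array 1 and 0.64 without array 2. The call was lost in both of these fits, which leave 1 transgenic array and called few features of any kind. The call was also lost with quantile normalization (adjusted p = 0.0522), with a median shift (0.0973), with the mean of a gene's probes (0.0503) and without an intensity trend (0.154). Hmgcs1 has 1 probe, so the mean of a gene's probes left its own values and its difference of 0.61 unchanged. Without an intensity trend 0 of all 24518 features were called.

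Idi1 encodes isopentenyl-diphosphate isomerase, which interconverts the 2 five-carbon isoprenoid units. Its probe at 8891524 to 8891583 of chromosome 13 gave 0.70 and 1.41 on the wild-type arrays and 1.96 and 1.99 on the transgenic arrays. Both transgenic values exceeded both wild-type values, and the difference of 0.92 ± 0.24 had an adjusted p of 0.141. Fdps encodes farnesyl diphosphate synthase, whose product feeds sterols, dolichol, ubiquinone and protein prenylation. Its probe at 88897549 to 88897608 of chromosome 3 gave 2.07 and 2.74 in the wild-type samples against 2.57 and 2.68 in the transgenic samples. The groups overlapped, and the difference of 0.22 ± 0.22 (adjusted p = 0.625) had a 95% interval from 0.791-fold to 1.72-fold.

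Fdft1 encodes squalene synthase, the first enzyme committed to sterols, and was read by 2 probes that disagreed. The brighter one, at 1040 in NM_010191, covers 60 bases of transcript over 4241 bases of chromosome 14 (63765750 to 63769990), so it crosses an exon junction. It gave -1.27 and -0.23 on the wild-type arrays and 0.23 and 0.20 on the transgenic arrays, a difference of 0.97 ± 0.34 (adjusted p = 0.225). The dimmer one lies nearer the 3' end, at 2228 in the same transcript and at 63764562 to 63764621, and gave -2.83 and -3.51 on the wild-type arrays and -3.82 and -3.52 on the transgenic arrays. Its difference was -0.50 ± 0.33, in the other direction, with an adjusted p of 0.46 over all probes. Processed signals of the dimmer probe were low, at 33.7 and 29.2 on the wild-type arrays and 25.1 and 30.6 on the transgenic arrays. Signal over background therefore limits what that probe can show. The higher value for Fdft1 rests on 1 of its 2 probes, the brighter one.

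Sqle encodes squalene epoxidase, which adds the oxygen that the next step needs and is a rate-limiting enzyme of the pathway. Its probe at 59162688 to 59162747 of chromosome 15 gave 0.56 and 1.42 on the wild-type arrays and 2.58 and 2.44 on the transgenic arrays. On the scale of the scanner, without normalization between arrays, the processed signals were 354 and 893 against 2120 and 1910. The transgenic arrays were well above both wild-type arrays, which were themselves 0.86 apart. The difference was 1.52 ± 0.28, or 2.87-fold with a 95% interval of 1.76 to 4.68 and an adjusted p of 0.0743, and 1.83% of all features tested had a higher difference. Without wild-type array 1 Sqle was called (adjusted p = 0.022) at a smaller difference of 1.09, and without wild-type array 2 it was called (0.00313) at 1.95. Lss encodes lanosterol synthase, which closes the sterol rings. Its probe at 76015992 to 76016051 of chromosome 10 gave -2.92 and -2.29 on the wild-type arrays and -2.51 and -2.20 on the transgenic arrays. The groups overlapped and the difference was 0.25 ± 0.29 (adjusted p = 0.676).

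Of the 2 regulators, Srebf2 was read by 2 probes on chromosome 15 that agreed in direction. The brighter, at 82034765 to 82034824, gave -0.57 and 0.25 on the wild-type arrays and 0.58 and 0.66 on the transgenic arrays, with a difference of 0.78 ± 0.28 (adjusted p = 0.222). The dimmer, at 82030068 to 82030127, gave -2.87 and -2.01 against -1.17 and -0.95, with a difference of 1.38 ± 0.32 (adjusted p = 0.114 over all probes). On both probes the transgenic arrays lay above the wild-type arrays, and neither probe passed the test. Processed signals of the dimmer probe were 32.6 and 82.9 on the wild-type arrays and 158 and 181 on the transgenic arrays. Signal over background therefore limits what that probe can show, above all on wild-type array 1. Insig1 was the member with a negative difference. Its probe at 28404246 to 28404305 of chromosome 5 gave 0.35 and 0.94 on the wild-type arrays and 0.42 and 0.45 on the transgenic arrays, with a difference of -0.21 ± 0.21 (adjusted p = 0.622). The transgenic values lay inside the range of the wild-type values, and the 95% interval ran from 0.598-fold to 1.25-fold.

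The 2 wild-type samples differed from each other more in these genes than the transgenic samples did. Wild-type array 2 was above wild-type array 1 for all 8, by 0.11 for Hmgcs1 and by 0.59 to 1.04 for the other 7, with a median of 0.69. Over all features tested that gap had a median of -0.021, and array 2 was the higher for 47.4% of them. The transgenic arrays differed by at most 0.32 among the 8, with a median size of 0.07. Over all features tested the wild-type pair was also the wider, with a median size of 0.218 against 0.125 for the transgenic pair. The same order of the wild-type arrays held for 9 of 11 lanosterol-to-cholesterol genes (median gap 0.28) and for 11 of 13 fatty acid synthesis enzymes (median gap 0.15). It also held for 9 of 11 genes in other branches of the isoprenoid pathway (0.075) and 4 of 6 other mevalonate enzymes (0.16). For uptake genes it was 7 of 12 (0.042), for sterol disposal 6 of 10 (0.13) and for SREBP regulation 7 of 14 (0.002). Wild-type array 1 was also the dimmest array, with 47.0% of its spots well above background against 55.5% to 57.0% on the other 3, and what that array's brightness contributes to the gap was not tested.

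Most differences among the 8 therefore depended on which wild-type array was used. Against wild-type array 1 alone, that is without wild-type array 2, the differences ran from 0.08 for Insig1 to 1.95 for Sqle and 6 of the 8 were called, where 15.7% of all features were called. Against wild-type array 2 alone the differences were 1.09 for Sqle, 0.55 for Hmgcs1, 0.56 for Idi1, 0.45 for Fdft1 and 0.37 for Srebf2. They were -0.11 for Fdps, -0.06 for Lss and -0.51 for Insig1. Hmgcs1 and Sqle were called there, where 4.96% of all features were. Without transgenic array 1 the median difference of the 8 was 0.70, and without transgenic array 2 it was 0.69. A fit with a lone array in 1 group takes its spread from the other pair. Counts called with an array left out therefore reflect which pair was left as well as the size of the difference. Hmgcs1 and Sqle differed from either wild-type array by at least 0.55, and Idi1 by at least 0.56.

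**Figure D2:**
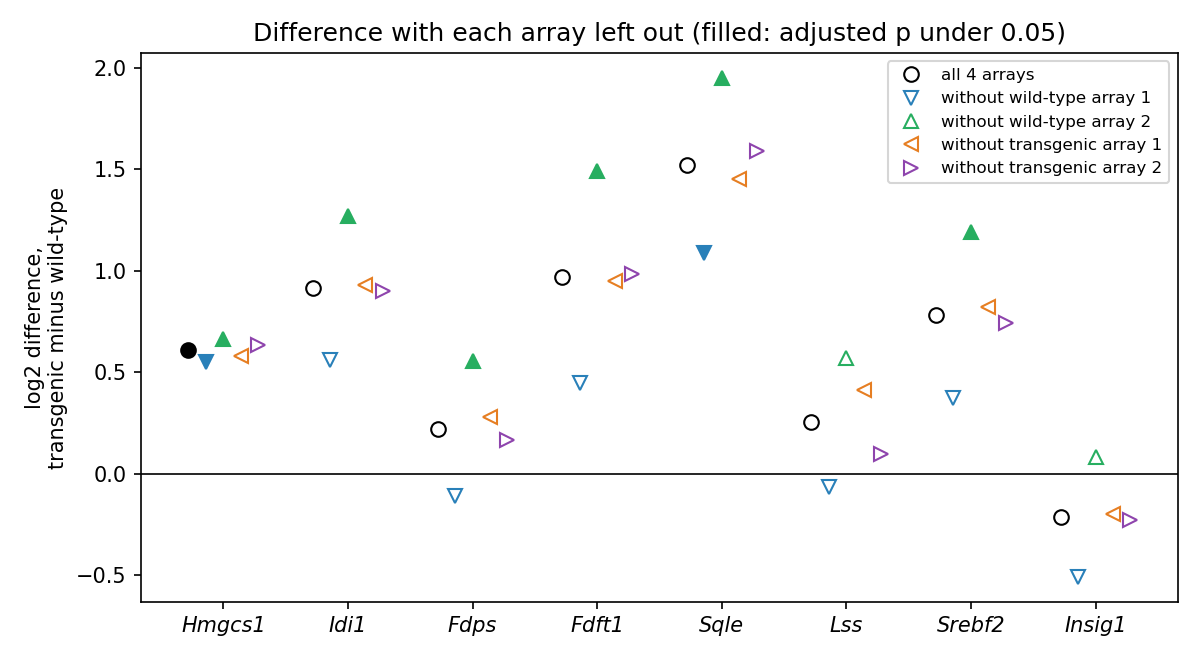
Log2 difference (transgenic minus wild-type, vertical axis) of each of the 8 genes with all 4 arrays and with each array left out, with filled symbols for an adjusted p under 0.05. Hmgcs1 stays between 0.55 and 0.67 throughout, the values of Sqle run from 1.09 to 1.95, and Fdps, Lss and Insig1 change sign with the wild-type array used.

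Of the 6 other enzymes of the mevalonate arm, 0 were called in limma, with 2 at an unadjusted p under 0.05, and the median difference was -0.06. Over all 24518 features tested, 4660 had an unadjusted limma p under 0.05 in the same fit. Counts at that p, here and in the lists below, are to be read against that share and are no result about a list by themselves. Mevalonate diphosphate decarboxylase (Mvd), which makes the first isoprenoid unit, was lower on both transgenic arrays, at 0.04 and -0.03 against 0.34 and 0.78 (difference -0.56 ± 0.18, adjusted p = 0.185). Geranylgeranyl diphosphate synthase (Ggps1), which draws farnesyl units away from sterols, had a difference of -0.34 ± 0.12 (adjusted p = 0.23).

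Among the 11 genes of the steps from lanosterol to cholesterol 0 were called and 3 had an unadjusted limma p under 0.05. Of these 11, 8 had a difference above 0, with a median of 0.24. Lanosterol demethylase (Cyp51), the step after Lss, gave -2.15 and -1.32 on the wild-type arrays and -0.66 and -0.48 on the transgenic arrays. All of its transgenic values lay above its wild-type values, at 2.24-fold, with an adjusted p of 0.139. The desaturase Sc5d had a difference of 0.42 ± 0.14 (adjusted p = 0.196) and the isomerase Ebp one of -0.28 ± 0.08 (adjusted p = 0.166). Without wild-type array 2, 4 of these 11 were called.

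The genes around SREBP2 gave no call in limma among 14 tested, with 2 at an unadjusted p under 0.05 and a median difference of -0.11. Srebf1, which encodes the related factor that favours fatty acid synthesis, gave -1.10 and -1.07 on the wild-type arrays and -1.36 and -1.37 on the transgenic arrays (-0.28 ± 0.15, adjusted p = 0.379). The site-2 protease Mbtps2, which makes the second cut in SREBP, had a difference of -0.64 ± 0.20 (adjusted p = 0.183), and the site-1 protease Mbtps1 one of -0.28 ± 0.11 (adjusted p = 0.272). Erlin1 had a difference of -0.25 ± 0.09 (adjusted p = 0.222).

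Uptake was read from 12 tested genes of 13, and Lrp8 was not well above background on any array. None was called in limma (0 of 12, 5 at an unadjusted p under 0.05), and the median difference was -0.025. The HDL receptor Scarb1, which takes up cholesterol esters, gave -0.54 and -0.41 against 0.34 and 0.57, and its 1.91-fold difference narrowly missed the threshold (0.93 ± 0.14, adjusted p = 0.0513). The wild-type arrays were 0.13 apart there. The sterol carrier Stard4 had a difference of 0.73 ± 0.16 (adjusted p = 0.102). In the other direction, the receptor Lrp1 had a difference of -0.33 ± 0.13 (adjusted p = 0.258). Of the 12 differences 7 were below 0 and 5 above it.

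**Figure D3:**
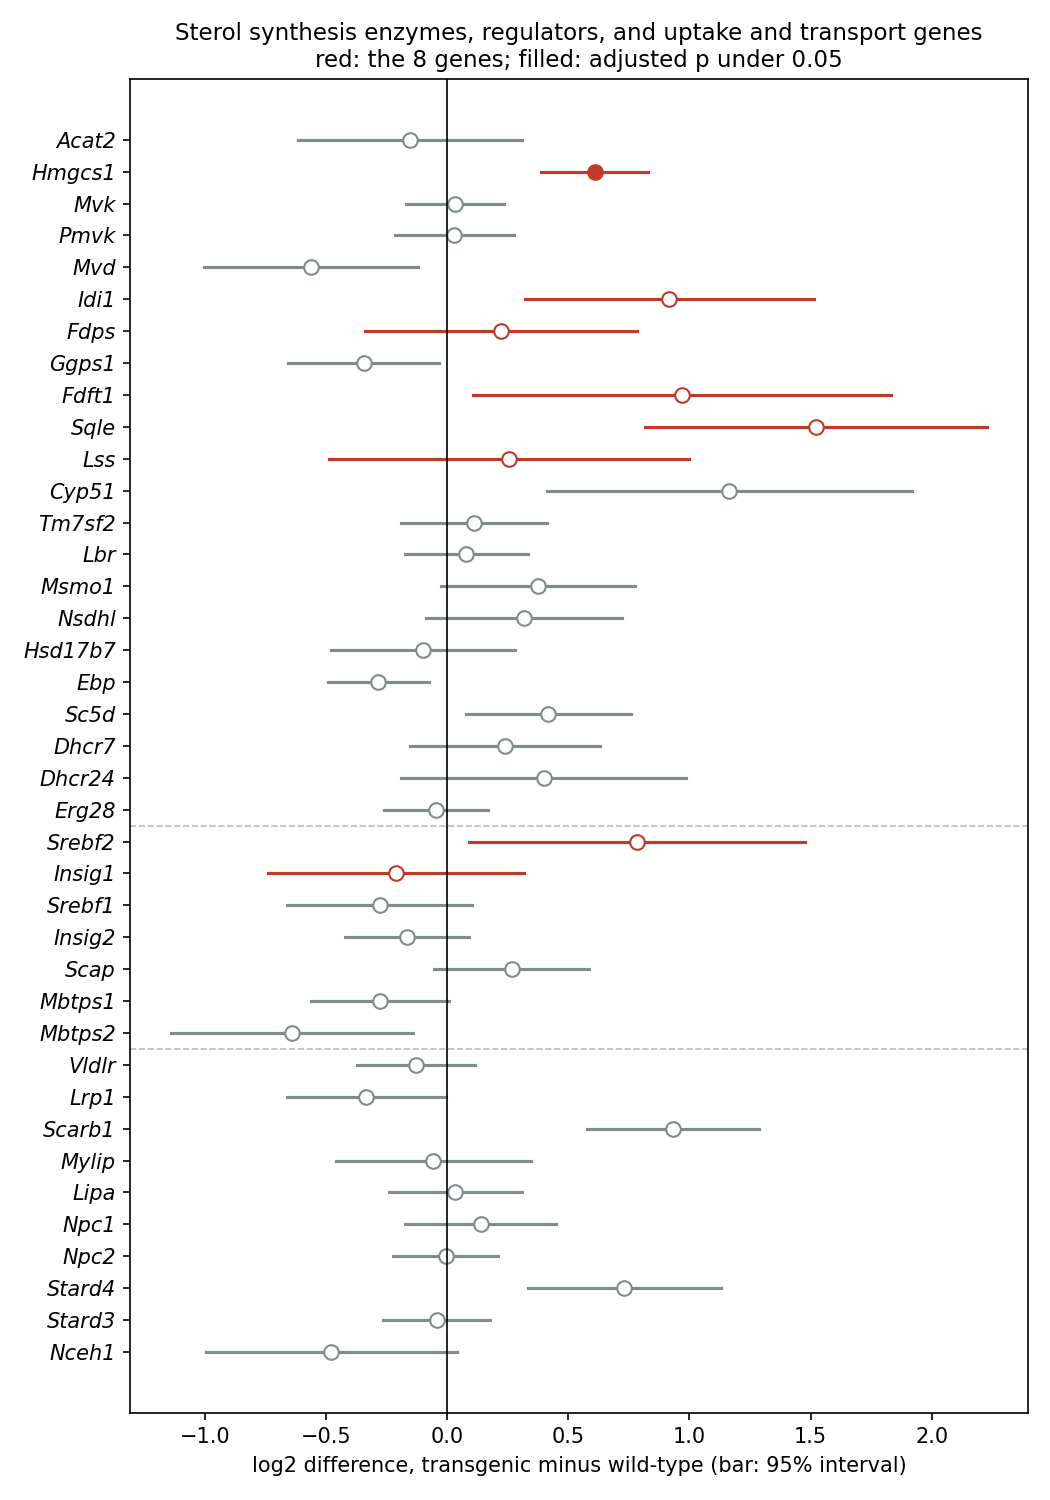
Log2 difference (transgenic minus wild-type) with its 95% interval, with the 8 genes in red. The top block holds sterol synthesis genes, with enzymes in order of reaction and Erg28 last. SREBP2 and its regulators are in the middle block, and uptake and transport genes in the bottom block. Hmgcs1 is the filled point, with an adjusted limma p of 0.0471. The intervals of Idi1, Fdft1, Sqle, Cyp51, Sc5d, Srebf2, Scarb1 and Stard4 also lie above 0 before adjustment. Those of Mvd, Ggps1, Ebp, Mbtps2 and Lrp1 lie below 0 before adjustment.

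On the side of sterol disposal 1 of 10 tested genes rose and 0 fell, with a median difference of 0.044. The gene that rose was Cyp7b1, an oxysterol hydroxylase, at -0.84 and -0.62 on the wild-type arrays and 0.20 and 0.36 on the transgenic arrays (2.01-fold, 95% interval 1.55 to 2.60, adjusted p = 0.0492). It no longer passed when wild-type array 1 (adjusted p = 0.0517), transgenic array 1 (0.138) or transgenic array 2 (0.187) was left out. With all arrays it also missed the threshold under quantile normalization (adjusted p = 0.0664, and 0.0648 after normexp correction), a median shift (0.0909), the mean of a gene's probes (0.0513) and no intensity trend (0.117). Cyp7b1 has 1 probe, so the mean of a gene's probes left its own values unchanged, and no feature at all was called without an intensity trend. Cholesterol 25-hydroxylase (Ch25h), whose product suppresses SREBP processing, was not well above background on wild-type array 1, and its difference of 1.03 ± 0.40 had an adjusted p of 0.254. The mitochondrial sterol 27-hydroxylase Cyp27a1 had a difference of -0.43 ± 0.19 (adjusted p = 0.292).

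Fatty acid synthesis, which is under the control of the related factor SREBP1, was compared as the pathway most like this one. Of 13 tested enzymes 0 were called in limma and 4 had an unadjusted p under 0.05. The median difference was -0.057, where it was 0.70 for the 8 sterol genes, and the gap between these medians was not tested. The elongase Elovl6 had a difference of 0.58 ± 0.12 (adjusted p = 0.0964), the desaturase Fads2 one of 0.65 ± 0.17 (0.139) and Fads1 one of 0.45 ± 0.17 (0.24). Of 11 genes in other branches of the isoprenoid pathway 0 were called, with 2 at an unadjusted p under 0.05 and a median of -0.09. Among them the farnesyltransferase subunit Fnta had a difference of -0.27 ± 0.09 (adjusted p = 0.204) and Pdss2 of ubiquinone synthesis one of 0.29 ± 0.20 (0.485).

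**Figure D4:**
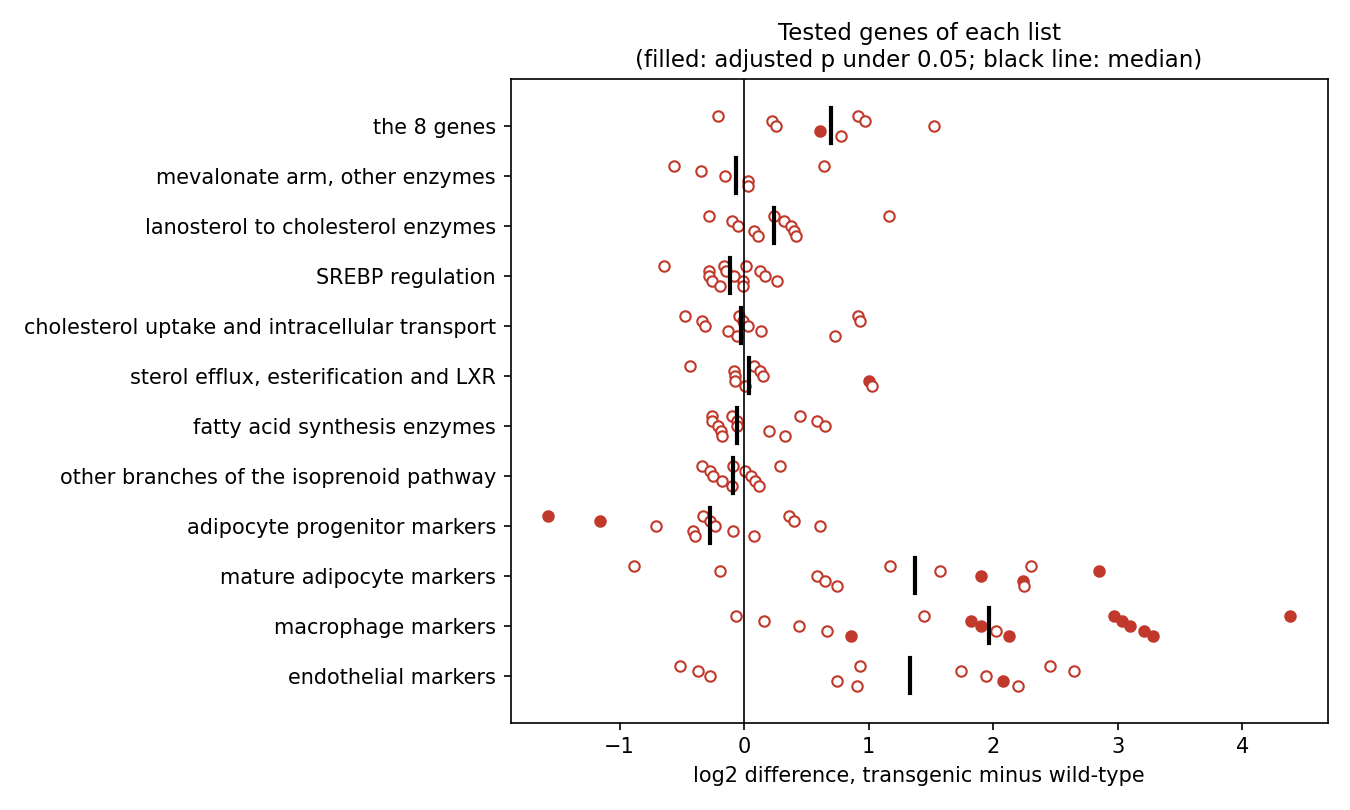
Log2 difference (transgenic minus wild-type) of every tested gene in the 8 genes, in 7 other lists of sterol and lipid genes and in 4 lists of cell type markers, with filled symbols for an adjusted p under 0.05 and a black line at each median. The 8 genes have a median of 0.70 and the other sterol and lipid lists lie between -0.11 and 0.24, while the mature adipocyte, macrophage and endothelial markers have medians from 1.34 to 1.96, lists in which 2, 6 and 5 markers passed the filter through the transgenic arrays alone. With normexp correction and a 75th percentile shift those medians run from 0.44 to 1.12.

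Markers of other cells moved between the same samples. Of 16 macrophage markers 10 rose, with a median difference of 1.96, and their summed linear signal, in units of each array's 75th percentile, was 59.7 to 60.5 in the wild-type samples and 67.7 to 71.0 in the transgenic samples. Of 12 tested mature adipocyte markers 3 rose (median 1.37), and their summed signal was 292 to 297 against 509 to 520. Such sums follow their brightest probes and do not give the amount of a cell type. In the macrophage sum the brightest was Itgam, at 5.6 and 5.6 on the wild-type arrays and 5.6 and 5.5 on the transgenic arrays. In the adipocyte sum it was Lpl, which was not called, at 8.1 and 8.0 against 8.6 and 8.6. Of 12 endothelial markers 1 rose (median 1.34), with sums of 24.9 to 29.3 and 24.1 to 24.5. Of 8 smooth muscle and pericyte markers tested 2 rose and 1 fell (median 0.62), with sums of 6.0 to 7.1 and 8.3 to 9.1, and of 5 Schwann cell markers 1 rose and 1 fell (median 0.57), with sums of 8.2 to 8.6 and 11.6 to 12.8. The macrophage markers Lyz2 and Adgre1 and the endothelial marker Emcn did not reach that level over background in any wild-type sample, and 6 macrophage, 2 adipocyte, 5 endothelial, 1 Schwann cell and 1 smooth muscle and pericyte markers passed the filter through the transgenic arrays alone. The last of these was Rgs5, 1 of the 2 of its list that rose. Over the markers well above background on all arrays, 6 of 10 macrophage markers rose (median 1.92), 3 of 10 adipocyte markers (1.74) and 1 of 7 endothelial markers (0.74). On the same terms 1 of 7 smooth muscle and pericyte markers rose and 1 fell (0.39), and 1 of 4 Schwann cell markers rose and 1 fell (0.72). With normexp background correction and a 75th percentile shift the medians over all tested markers were 1.12 for macrophage, 0.92 for adipocyte, 0.44 for endothelial, 0.16 for smooth muscle and pericyte and 0.08 for Schwann cell markers. The adipocyte hormone leptin (Lep) was not well above background on any array. Each of 13 progenitor markers was well above background on every array, and 2 of them, Cd24a and Pi16, fell (median of the list -0.27, and -0.03 with quantile normalization, summed signal 3846 to 4699 in the wild-type samples and 3241 to 3274 in the transgenic samples). The part of these cell types in the sterol gene differences was not tested. In bulk RNA, fewer or more cells of a type and less or more RNA per cell cannot be told apart.

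Adamts1 itself, as a check of the labels, gave 6.65 and 6.73 on the wild-type arrays and 6.77 and 6.82 on the transgenic arrays (0.11 ± 0.09, adjusted p = 0.573). Whether this probe lies inside the transgene is not known here, and if it does not, it checks nothing. Correlations between arrays were 0.984 for the wild-type pair, 0.994 for the transgenic pair and 0.977 to 0.984 across genotypes. Among features well above background on all arrays, those whose 4 values lay nearest to the mean profile of the 8 genes were mostly without a gene name. They were an unnamed region probe at a distance of 0.04, probe A_55_P2127664 at 0.057, another region probe at 0.072, transcript ENSMUST00000106773 at 0.074 and B930025B16Rik at 0.078. The nearest of the 8 to their own mean was Srebf2 at 0.18, and Sqle, with the widest range, was at 0.91.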

How the data were processed

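RNA of 2 wild-type and 2 transgenic samples was labelled with Cy3, per the labels' protocols, and hybridised to Agilent design 028005, read by Feature Extraction 10.7.3.1, per the file headers. All 4 arrays shared 1 slide and 1 scan. The intensity that the authors deposited (processed signal) is background-subtracted and detrended within each array, per the file headers. The deposited series table holds log2 values, which correlated at 0.9998 to 1 with the scanner values once those were shifted and each probe was centred (column medians 0.193, -0.0209, -0.0454 and 0.0191). How it was made is not stated, and it served as an alternative.

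Control spots and outlier spots were left out, log2 signals were averaged per probe, and each array's 75th percentile over non-control spots (signals of 239, 333, 354 and 350) was subtracted. RefSeq accessions on GRCm38.p6 named 26582 of 55681 probes, and the rest kept the design's name. Each gene entered by its brightest probe, and each probe of an unnamed tiled region on its own, if all arrays of 1 group or both were well above background for it. All 24518 features were fitted with limma 3.58.1 in R 4.3.3 (intensity trend, 2-sided, residual df 2, prior df 3.34, Benjamini-Hochberg over all features). The fit was tested on simulated data. The number of arrays limits the precision, with a median SE of 0.18. Sample titles give same-numbered arrays only a shared number, and their correlation of deviations over features (0.003) does not show whether they were handled as pairs. The 8 genes, the lists and the rule for named genes (the 8, Srebf1, Adamts1 and a few other set genes, called genes or up to 3 by smallest p per list, and the 5 nearest profiles) were chosen with earlier results of these data known. Some genes under this rule are not reported here. Promoters are from RefSeq.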

Additional observations from a re-analysis of the deposited data

How the results depend on the processing

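The median difference of the 8 genes moved by less than the spread between arrays in every setting, from 0.43 with the mean of a gene's probes to 0.73 with quantile normalization, and from 0.41 to 0.93 with 1 array left out. The number called was 1 in the fit described above, with all arrays. It was 2 (Hmgcs1 and Sqle) with normexp correction and a 75th percentile shift, no filter, array weights and the replicate block. It was 0 in limma with quantile normalization (5 at an unadjusted p under 0.05), the mean of a gene's probes (4), a median shift (3) and no intensity trend (3), and ran from 0 to 6 with 1 array left out. Of all features, 4405 of 24517 had an unadjusted limma p under 0.05 with quantile normalization and 4624 of 24525 with the mean of a gene's probes. It was 4479 of 24518 with a median shift and 4124 of 24518 with no intensity trend. Whether same-numbered arrays were handled as pairs is not known, and their correlation of deviations (0.003) does not settle it. The replicate block moved the count over all features from 423 to 774, and the absence of a filter moved it to 695. With no intensity trend limma called 0, with 4124 at an unadjusted p under 0.05, and with 1 array left out it ran from 90 to 3998. In the uptake list 1 gene, Scarb1, was called with normexp correction and a 75th percentile shift, with no filter and with the replicate block, and 0 to 4 with 1 array left out. In the sterol disposal list 0 were called with quantile normalization, normexp correction with quantile normalization, a median shift, the mean of a gene's probes and no intensity trend, and 0 to 1 with 1 array left out. With 1 array left out the counts ran from 0 to 1 in the SREBP, mevalonate and other isoprenoid lists, from 0 to 3 for fatty acid synthesis and from 0 to 4 for lanosterol-to-cholesterol enzymes. With 1 array left out the difference ran from -0.11 to 0.556 for Fdps, from -0.0625 to 0.572 for Lss and from -0.508 to 0.0841 for Insig1, and that of Lss was -7.32e-05 with normexp correction and a 75th percentile shift. The cause of these changes was not tested. Of 479 values of the 32 genes under the naming rule with other settings, 437 kept direction and side of the threshold, 14 lost a call, 24 gained one and 4 changed sign. Signal over background limits Lss, whose processed signal was 31.5 on wild-type array 1, and the dimmer Fdft1 probe, with 25.1 to 33.7 over the arrays. It also limits the dimmer Srebf2 probe, whose processed signal was 32.6 on wild-type array 1.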
